A study of Mus musculus with 3 samples.

Results

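The genes described here are 10 transcriptional targets of p53, measured in single nuclei of mouse hippocampus: Cdkn1a, Ccng1, Mdm2, Bax, Phlda3, Trp53inp1, Zmat3, Sesn1, Rrm2b and Polk. They were chosen by name, as known p53 targets, and each was found once among the 32285 genes of the deposited matrices. There were 3 libraries, each made from the pooled, flash-frozen hippocampi of 4 mice: doxorubicin plus ACY-1083, doxorubicin, and untreated control. Doxorubicin is a chemotherapy drug that poisons topoisomerase II and breaks DNA, and ACY-1083 is an inhibitor of the deacetylase HDAC6. The study asked whether HDAC6 inhibition reverses the cognitive impairment that follows doxorubicin. Dose, sex, strain, age and the time between treatment and tissue collection are not stated in the labels. Nuclei were released with Triton X-100 and sequenced with the 10x 3' version 3 chemistry, so the values count RNA molecules (UMIs) in nuclei and not in whole cells.

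The transcription factor p53 is held low in undamaged cells by the ubiquitin ligase Mdm2, and DNA breaks signal through kinases such as Atm to release it. Released p53 binds DNA at a site made of a pair of like half-sites and raises the transcription of genes that stop the cell cycle, repair DNA, supply nucleotides or start apoptosis. Mdm2 is itself a target, which closes a feedback loop. In neurons, which no longer divide, p53 is best known for its part in apoptosis after DNA damage.

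Stretches of promoter that match the p53 half-site are shown because the genes were chosen as p53 targets; they are matches of letters only. Promoter windows from 250 bases before to 50 bases after the start of transcription (RefSeq, GRCm38.p6) were listed for 7 of the 10 genes, in 10 windows. Zmat3, Rrm2b and Trp53inp1 had none. Each window was searched for the p53 half-site consensus by its name, a motif of 10 bases that is its own reverse complement, so that both strands were read at once. Half-sites without a mismatch stand in capitals, with 20 bases on either side of the outermost half-site where the window allows, and, for Ccng1, Bax, Sesn1 and Polk, with the second half-site that holds mismatches left in lower case.
Cdkn1a, chr17:29090886-29090957, plus strand: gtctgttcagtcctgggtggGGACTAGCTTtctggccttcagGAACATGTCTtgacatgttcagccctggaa
Ccng1, chr11:40755442-40755501, minus strand: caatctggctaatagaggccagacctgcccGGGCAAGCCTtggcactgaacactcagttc
Mdm2, chr10:117710915-117710964, minus strand: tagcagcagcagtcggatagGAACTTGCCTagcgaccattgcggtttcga
Bax, chr7:45467070-45467130, minus strand: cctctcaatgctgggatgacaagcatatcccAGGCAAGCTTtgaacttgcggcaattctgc
Sesn1, chr10:41887233-41887295, plus strand: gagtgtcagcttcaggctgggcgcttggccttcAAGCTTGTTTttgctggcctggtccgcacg
Polk, chr13:96519378-96519437, minus strand: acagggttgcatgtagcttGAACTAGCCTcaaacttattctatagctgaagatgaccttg

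A half-site without a mismatch was present in 6 of the 10 windows, which belong to 6 of the 7 genes, against 2745 of all 32851 RefSeq windows of this length (8.36%). Phlda3 had none in its window. A full site is a pair of half-sites at most 13 bases apart. With at most 1 mismatch in all it was found in 4 of the 10 windows (Cdkn1a, Ccng1, Bax and Polk) and in 1.09% of all windows. The Sesn1 pair had 2 mismatches, and 10.1% of all windows held a pair with at most 2. With at most 3 mismatches, the widest cut searched, only the Sesn1 window joined these 4. At that cut 45.1% of all windows held a full site, so the listed windows stood near the background. The Cdkn1a pair with the fewest mismatches had none and a spacing of 12 bases, and only 0.0731% of all windows held a pair without a mismatch. The 10 bases directly after its second half-site, left in lower case, match the half-site with 1 mismatch. A pair without a gap and with 1 mismatch therefore stands in the Cdkn1a stretch too. Cdkn1a, Sesn1 and Polk each have another listed start whose window held no half-site without a mismatch; the stretch shown lies at the upstream start of Cdkn1a, the downstream start of Sesn1 and the downstream start of Polk. A match describes the letters of the window, and binding was not measured.

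The matrices held 12192 barcodes for doxorubicin plus ACY-1083, 12221 for doxorubicin and 10909 for control, and 62151258 UMIs for doxorubicin plus ACY-1083, 21458785 for doxorubicin and 19175447 for control. After filtering, 11846 nuclei were kept with doxorubicin plus ACY-1083 (median depth 3849.5 UMIs), 11647 with doxorubicin (1471 UMIs) and 10455 in control (1472 UMIs). Any pair of libraries shared between 29 and 46 barcodes. The doxorubicin plus ACY-1083 library stood apart from the other two. It was deeper, and its counts followed the length of introns: over 18053 genes in all kept nuclei, Spearman's rho between the intron length of a gene and its ratio of doxorubicin plus ACY-1083 to doxorubicin was 0.617, against -0.086 over 15437 genes for doxorubicin to control. This is a correlation across genes, which are not independent replicates. Its file header also names another software version. Treatment and these properties cannot be told apart, so its values are given here both as measured and relative to genes of like intron length. Clusters were named from marker genes, and 11 classes with at least 100 nuclei in every library were compared. Nuclei of doxorubicin plus ACY-1083 were clustered alone, so each class of that library lies in clusters of its own, and 21.2% of its nuclei stayed unnamed, against 11.8% in doxorubicin and 11.3% in control. Free RNA was present in all 3 libraries. Ttr, a transcript of choroid plexus epithelium, was seen in 95.5 to 97.8% of nuclei of the other classes with doxorubicin plus ACY-1083, 97.1 to 98.9% with doxorubicin and 80.4 to 87.1% in control.

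With 1 pooled library per group there was no replicate error, so no test between groups was made and no p-value is given. Levels are the UMIs of a gene relative to all UMIs of the same nuclei, scaled as CPM. Ratios of at most 0.8 were called lower and ratios of at least 1 over 0.8 higher, a fixed rule of size for genes or classes with at least 50 UMIs in both libraries together. Intervals are at 95% and cover counting error only. Doxorubicin plus ACY-1083 was compared with doxorubicin, and doxorubicin with control, so the doxorubicin library is in both comparisons.

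The 10 targets together had a slightly lower level in doxorubicin than in control nuclei, and no single target moved past the rule of size over all nuclei. Their summed level was 252 CPM with doxorubicin plus ACY-1083 (15014 UMIs), 268 CPM with doxorubicin (5429 UMIs) and 284 CPM in control (5163 UMIs). This was 0.942-fold for doxorubicin relative to control (0.907 to 0.979). Of the 10 genes, 4 had a ratio above 1 and 6 below 1, and 0 of 10 were called higher or lower, against 13.1% of the 15442 genes with enough UMIs (6.7% higher and 6.42% lower). The median log2 ratio of the 10 was -0.023, beside -0.045 over all those genes. Relative to genes of like intron length, 7 of the 10 lay above 1 and 3 below, with a median log2 ratio of 0.030. The interval as measured was wholly below 1 for Mdm2, Bax and Zmat3 and above 1 for none, where 17.6% of all genes had it below and 8.56% above.

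Cdkn1a encodes p21, the cyclin-dependent kinase inhibitor through which p53 stops the cell cycle (chromosome 17, 29090976 to 29100727; all gene coordinates are of GRCm38). It was scarce in every library, with 71 UMIs and 1.19 CPM (0.932 to 1.505) in doxorubicin plus ACY-1083 nuclei, 48 UMIs and 2.37 CPM (1.75 to 3.14) in doxorubicin nuclei, and 36 UMIs and 1.98 CPM (1.39 to 2.74) in control nuclei. The doxorubicin and control intervals overlapped, and the ratio of 1.19 (0.760 to 1.89) spans values below 0.8 and well above 1. No class reached 50 UMIs. In CA1 pyramidal neurons there were 10 UMIs with doxorubicin plus ACY-1083 (1.04 CPM), 0 with doxorubicin, and 3 in control. A count of 0 is taken to allow up to 3 UMIs, here 1.08 CPM with doxorubicin. All UMIs of the CA1 nuclei were 9603502 with doxorubicin plus ACY-1083, 2775939 with doxorubicin and 2264138 in control. The raw counts are therefore not on the same scale. Subicular or cortical neurons had 1 UMI with doxorubicin plus ACY-1083, 11 UMIs with doxorubicin and 9 UMIs in control. Granule neurons had 9 UMIs with doxorubicin plus ACY-1083 (0.71 CPM), 5 UMIs with doxorubicin and 5 UMIs in control. All UMIs of the granule nuclei were 12682948 with doxorubicin plus ACY-1083, 4185249 with doxorubicin and 3691422 in control. Cdkn1a was seen in few nuclei, 0.557% of them with doxorubicin plus ACY-1083, 0.378% with doxorubicin and 0.335% in control. When each nucleus was thinned to 1000 UMIs these shares were 0.121% with doxorubicin plus ACY-1083, 0.227% with doxorubicin and 0.251% in control, too few nuclei for an order to be read. The nuclei with Cdkn1a held another of the 10 targets in 69.7% of cases with doxorubicin plus ACY-1083 (46 of 66), 47.7% with doxorubicin (21 of 44) and 31.4% in control (11 of 35). For nuclei without Cdkn1a these shares were 61.7% with doxorubicin plus ACY-1083, 34.6% with doxorubicin and 36.5% in control. Nuclei with Cdkn1a were also deeper, at a median of 5584 UMIs with doxorubicin plus ACY-1083, 2205 UMIs with doxorubicin and 1548 UMIs in control, against 3839.5 UMIs with doxorubicin plus ACY-1083, 1469 UMIs with doxorubicin and 1471.5 UMIs in control for the nuclei without. The part of depth in the shares was not tested.

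Ccng1 (chromosome 11, 40748552 to 40755311) encodes cyclin G1, a target that recruits a phosphatase to Mdm2. It had 604 UMIs and 10.1 CPM in doxorubicin plus ACY-1083, 298 UMIs and 14.7 CPM in doxorubicin, and 235 UMIs and 12.9 CPM in control nuclei. The ratio of doxorubicin to control was 1.14 (0.955 to 1.35). In granule neurons it had 9.46 CPM with doxorubicin plus ACY-1083, 14.1 CPM with doxorubicin and 10.3 CPM in control. The doxorubicin ratio there, 1.37 (0.896 to 2.12), was the highest of the 3 classes with enough UMIs, and its interval includes 1. CA2/CA3 pyramidal neurons had the lowest level in each library among the compared classes with at least 10 UMIs, at 6.12 CPM with doxorubicin plus ACY-1083, 9.61 CPM with doxorubicin and 5.19 CPM in control.

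Mdm2 (chromosome 10, 117688875 to 117710758), the ligase that marks p53 for destruction, had 2373 UMIs and 39.9 CPM in doxorubicin plus ACY-1083, 1074 UMIs and 53.01 CPM in doxorubicin, and 1079 UMIs and 59.4 CPM in control nuclei. Doxorubicin was 0.892-fold of control (0.819 to 0.971) over all nuclei. Granule neurons of the dentate gyrus had 43.3 CPM with doxorubicin plus ACY-1083, 59.5 CPM (52.3 to 67.4) with doxorubicin and 75.3 CPM (66.7 to 84.7) in control, a doxorubicin ratio of 0.790 (0.663 to 0.941). GABAergic neurons, the inhibitory neurons, had 34.0 CPM with doxorubicin plus ACY-1083, 30.6 CPM with doxorubicin and 47.1 CPM in control, with a doxorubicin ratio of 0.649 (0.444 to 0.942). CA1 pyramidal neurons had 35.6 CPM with doxorubicin plus ACY-1083, 41.8 CPM with doxorubicin and 41.1 CPM in control, and their ratio of 1.02 (0.768 to 1.35) was the 1 ratio above 1 among the 8 classes with at least 50 UMIs.

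Among the 11 compared classes Mdm2 was highest in choroid plexus epithelium in each library. That epithelium, which secretes cerebrospinal fluid, had 99.9 CPM (72.6 to 134) with doxorubicin plus ACY-1083, 108 CPM (66.9 to 165) with doxorubicin and 176 CPM (112 to 265) in control. In control this stood above the interval of the next class, microglia, at 82.1 CPM (59.1 to 111), and the other classes of control ran down from there to 38.8 CPM in fibroblast-like cells with intervals that overlapped their neighbours. In doxorubicin and in doxorubicin plus ACY-1083 the interval of choroid plexus overlapped that of the next class. The 3 genes whose levels over the 11 control classes were most like those of Mdm2 were Iqcg (Pearson's r 0.932), Fam122a (0.913) and Fyttd1 (0.895). For Cdkn1a they were Snx16 (0.950), Zfp9 (0.931) and Extl3 (0.905), but Cdkn1a itself rests on 36 UMIs there. These are descriptions over 11 classes of 1 library with unequal depth.

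**Figure D1:**
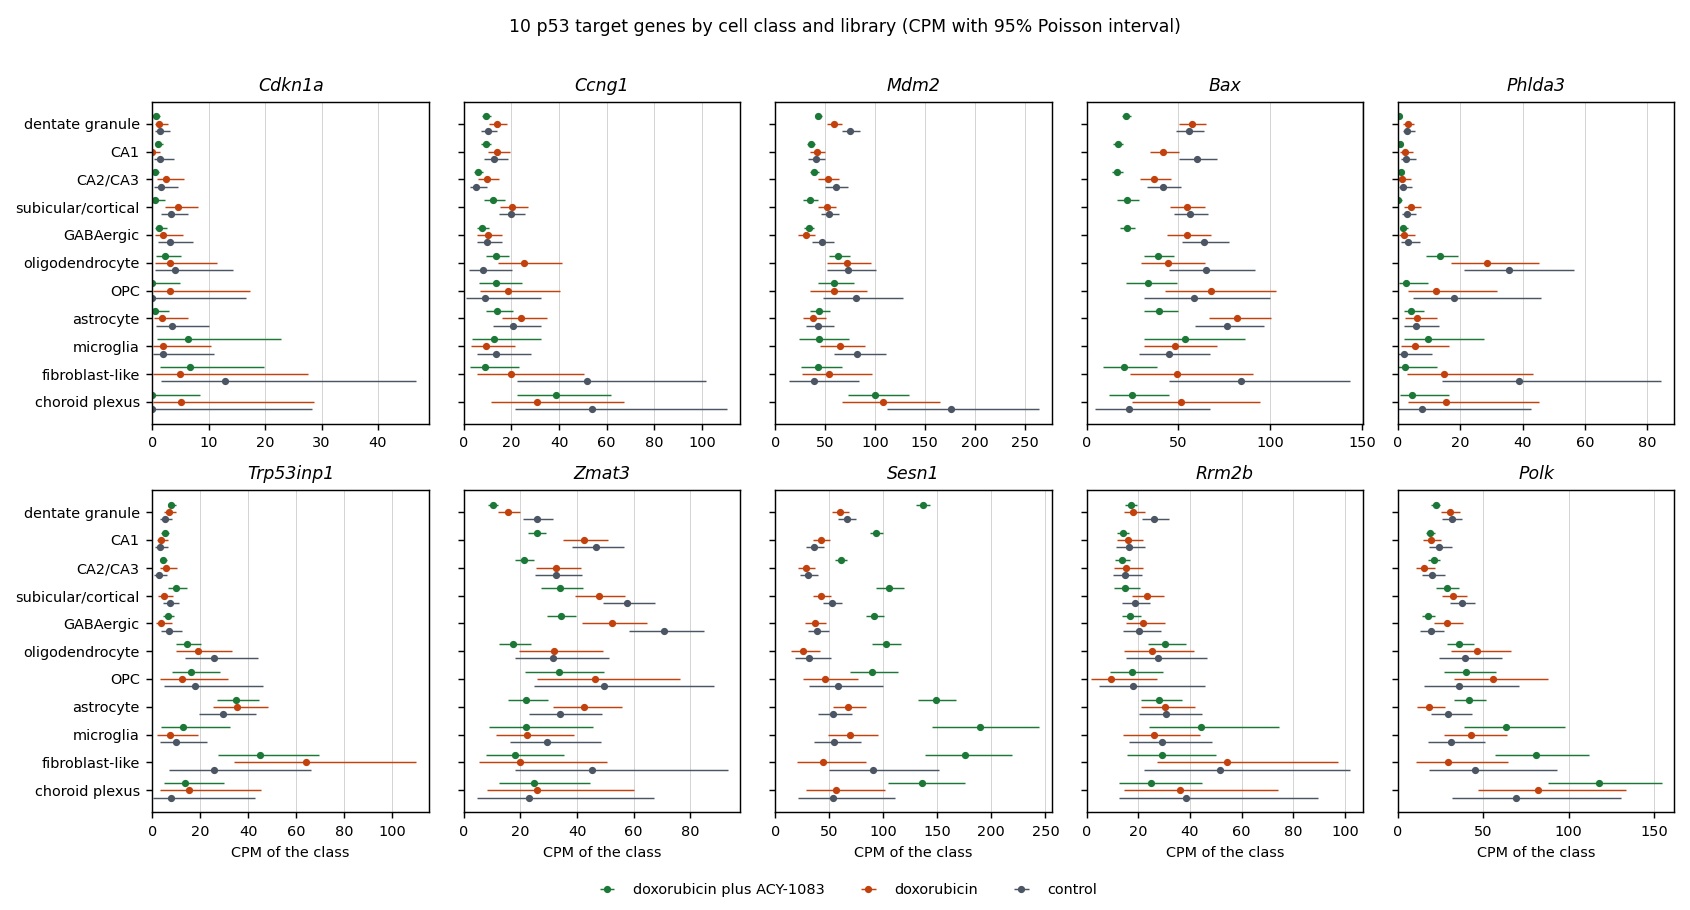
Level of each of the 10 p53 targets in the 11 compared cell classes, as CPM with exact Poisson 95% intervals of the counting error. Points are the doxorubicin plus ACY-1083, doxorubicin and control libraries, 1 per group. Sesn1 with doxorubicin plus ACY-1083 lies above the other libraries in every class, Phlda3 is near 3 CPM or below in control neurons, and Mdm2 in control is highest in choroid plexus at 176 CPM.

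Of the apoptosis genes, Bax (chromosome 7, 45461697 to 45466898) encodes the protein that opens the outer mitochondrial membrane. It had 1298 UMIs and 21.8 CPM with doxorubicin plus ACY-1083, 1030 UMIs and 50.8 CPM with doxorubicin, and 1014 UMIs and 55.8 CPM in control nuclei, with a doxorubicin to control ratio of 0.910 (0.834 to 0.994). CA1 pyramidal neurons had 17.2 CPM with doxorubicin plus ACY-1083, 41.8 CPM with doxorubicin and 60.1 CPM in control, so that doxorubicin was 0.696-fold of control there (0.538 to 0.898). Granule neurons had 21.7 CPM with doxorubicin plus ACY-1083, 57.6 CPM with doxorubicin and 56.1 CPM in control, a doxorubicin ratio of 1.03 (0.849 to 1.24), and the difference between CA1 and granule neurons in this ratio was not tested. Astrocytes had more Bax than CA2/CA3 pyramidal neurons in each library, with intervals that did not overlap within any of them. Astrocytes had 39.6 CPM with doxorubicin plus ACY-1083, 82.2 CPM with doxorubicin and 76.3 CPM in control, and CA2/CA3 neurons had 16.6 CPM with doxorubicin plus ACY-1083, 37.0 CPM with doxorubicin and 41.5 CPM in control.

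Phlda3 (chromosome 1, 135766119 to 135769136) encodes a small protein that restrains the kinase Akt at the membrane. It had 98 UMIs and 1.65 CPM with doxorubicin plus ACY-1083, 91 UMIs and 4.49 CPM with doxorubicin, and 78 UMIs and 4.30 CPM in control, with a doxorubicin to control ratio of 1.05 (0.764 to 1.43). No class reached 50 UMIs in either comparison. Its levels were uneven between classes. Oligodendrocytes, the myelin-forming cells, had 13.5 CPM (9.16 to 19.1) with doxorubicin plus ACY-1083, 28.7 CPM (17.0 to 45.3) with doxorubicin and 35.6 CPM (21.1 to 56.3) in control. Granule neurons had 0.473 CPM (0.174 to 1.03) with doxorubicin plus ACY-1083, 3.11 CPM (1.65 to 5.31) with doxorubicin and 2.98 CPM (1.49 to 5.33) in control. The intervals of these classes were apart in all 3 libraries.

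Trp53inp1 (chromosome 4, 11156431 to 11174379) encodes a nuclear stress protein that promotes p53-dependent apoptosis and autophagy. It had 524 UMIs and 8.80 CPM with doxorubicin plus ACY-1083, 180 UMIs and 8.88 CPM with doxorubicin, and 135 UMIs and 7.44 CPM in control, with a doxorubicin to control ratio of 1.19 (0.951 to 1.505). Astrocytes held 34.9 CPM (27.1 to 44.3) with doxorubicin plus ACY-1083, 35.5 CPM (25.4 to 48.1) with doxorubicin and 29.6 CPM (19.3 to 43.4) in control. Fibroblast-like cells were higher, at 45.0 CPM with doxorubicin plus ACY-1083 (27.5 to 69.4, overlapping astrocytes) and 64.2 CPM with doxorubicin. In control astrocytes were the highest of the compared classes with at least 10 UMIs. CA1 pyramidal neurons held 5.10 CPM (3.77 to 6.75) with doxorubicin plus ACY-1083, 3.60 CPM (1.73 to 6.62) with doxorubicin and 3.09 CPM (1.24 to 6.37) in control, below the astrocyte interval in each library. Astrocytes were the only compared class with 50 UMIs in doxorubicin and control together, with a ratio of 1.20 (0.716 to 2.04). Over the 11 control classes the levels of Trp53inp1 and Phlda3 correlated with r of 0.787, and those of Bax and Mdm2 with r of -0.853. These were the highest and the lowest r among all pairs of the targets, and were named after their values were seen. The other pairs lay between them, such as Mdm2 and Sesn1 at 0.018. The r of 0.787 rests on few counts, 78 control UMIs of Phlda3 and 135 of Trp53inp1 over all nuclei. For the r of -0.853, Bax and Mdm2 each had at least 10 UMIs in only 10 of the 11 control classes. The part of single classes in it was not tested.

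Zmat3 (chromosome 3, 32334792 to 32366014), a zinc finger protein that binds RNA and acts in splicing, had 1348 UMIs and 22.6 CPM with doxorubicin plus ACY-1083, 715 UMIs and 35.3 CPM with doxorubicin, and 767 UMIs and 42.2 CPM in control. Doxorubicin was 0.835-fold of control (0.753 to 0.926). Granule neurons had 10.3 CPM with doxorubicin plus ACY-1083, 15.5 CPM (11.99 to 19.8) with doxorubicin and 25.7 CPM (20.8 to 31.5) in control. The doxorubicin and control intervals did not overlap, and the ratio of 0.603 (0.433 to 0.836) was the lowest of the 43 ratios of a target in a class. Among the compared classes with at least 10 UMIs, GABAergic neurons had the highest level of Zmat3 and granule neurons the lowest in all 3 libraries. With doxorubicin plus ACY-1083 the GABAergic interval (29.5 to 39.8) overlapped that of the next class, subicular or cortical neurons at 34.1 CPM (27.3 to 42.1). The GABAergic values were 34.4 CPM with doxorubicin plus ACY-1083, 52.4 CPM with doxorubicin and 70.6 CPM in control, a doxorubicin ratio of 0.742 (0.553 to 0.992). Thalamic or habenular neurons, not compared because 53 nuclei were found with doxorubicin plus ACY-1083, had 39.2 CPM (23.6 to 61.3) with doxorubicin plus ACY-1083, 56.6 CPM (40.4 to 77.1) with doxorubicin and 61.6 CPM (40.6 to 89.6) in control. In astrocytes Zmat3 had 21.9 CPM with doxorubicin plus ACY-1083, 42.4 CPM with doxorubicin and 34.1 CPM in control, a doxorubicin ratio of 1.24 (0.772 to 2.02).

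Sesn1 (chromosome 10, 41809935 to 41908424) encodes sestrin 1, which restrains the growth kinase mTORC1 under stress. It had 6189 UMIs and 104 CPM with doxorubicin plus ACY-1083, 943 UMIs and 46.5 CPM with doxorubicin, and 853 UMIs and 47.0 CPM in control, and the doxorubicin to control ratio was 0.991 (0.902 to 1.09). Granule neurons had more Sesn1 than CA2/CA3 pyramidal neurons in each library, with intervals apart. The granule values were 137 CPM with doxorubicin plus ACY-1083, 59.97 CPM with doxorubicin and 66.1 CPM in control, and those of CA2/CA3 neurons 60.8 CPM with doxorubicin plus ACY-1083, 28.4 CPM with doxorubicin and 30.6 CPM in control. Doxorubicin ratios of Sesn1 lay between 0.809 in subicular or cortical neurons and 1.26 in astrocytes (0.867 to 1.85), and every one of these 7 intervals included 1. Microglia, also at 1.26, had an interval of 0.749 to 2.13.

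Rrm2b (chromosome 15, 37923952 to 37961318) encodes the p53-induced subunit of ribonucleotide reductase, which makes deoxynucleotides for repair outside S phase. It had 993 UMIs and 16.7 CPM with doxorubicin plus ACY-1083, 442 UMIs and 21.8 CPM with doxorubicin, and 405 UMIs and 22.3 CPM in control, a doxorubicin to control ratio of 0.978 (0.853 to 1.12). In granule neurons it had 17.1 CPM with doxorubicin plus ACY-1083, 18.2 CPM with doxorubicin and 26.3 CPM in control, and doxorubicin was 0.691-fold of control (0.505 to 0.943). An antisense gene, Gm49085, lies across Rrm2b and is also counted in the matrices. Genes on the same strand that are not counted in the matrices overlap some targets. They are Gm3362 for Rrm2b, 9930024M15Rik for Sesn1 and Gm45808 for Bax, and their part in the counts was not tested.

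Polk (chromosome 13, 96480690 to 96542579) encodes DNA polymerase kappa, which copies past damaged bases. It had 1516 UMIs and 25.5 CPM with doxorubicin plus ACY-1083, 608 UMIs and 30.01 CPM with doxorubicin, and 561 UMIs and 30.9 CPM in control, with a doxorubicin to control ratio of 0.971 (0.864 to 1.09). Among the 11 compared classes choroid plexus epithelium was highest with doxorubicin plus ACY-1083, at 118 CPM (88.2 to 155), and with doxorubicin, at 82.3 CPM (47.0 to 134), and it had 69.0 CPM from 9 UMIs in control (31.6 to 131). In GABAergic neurons Polk had 17.8 CPM with doxorubicin plus ACY-1083, 28.7 CPM with doxorubicin and 19.2 CPM in control, and the doxorubicin ratio of 1.49 (0.927 to 2.44) was the highest of the 43 and included 1. An opposite-strand gene, Gm17622, overlaps Polk and is counted too.

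Over classes, 43 of the 110 pairs of a target and a class had at least 50 UMIs in doxorubicin and control together, and the other 67 pairs were too shallow to use. Of the 43, 4 were called higher and 9 lower with doxorubicin. That is 30.2% in either direction, beside a background of 25.7% over all 67686 pairs of a gene and a class (11.3% higher and 14.4% lower). With TMM scaling there were 6 higher and 7 lower (background 13.6% and 11.6%), and relative to genes of like intron length also 6 higher and 7 lower (background 12.6% and 11.8%). As measured 15 of the 43 lay above 1, and 20 relative to genes of like intron length. The interval was above 1 for 0 of the 43 (background 4.41%) and below 1 for 6 (background 6.64%). These 6 were Mdm2, Zmat3 and Rrm2b in granule neurons, Bax in CA1 pyramidal neurons, and Mdm2 and Zmat3 in GABAergic neurons. In granule neurons alone 10.7% of all genes had an interval below 1, in CA1 neurons 7.26% and in GABAergic neurons 4.57%. The summed level of the 10 targets in granule neurons was 270 CPM with doxorubicin plus ACY-1083, 267 CPM with doxorubicin and 301 CPM in control, a doxorubicin ratio of 0.886 (0.815 to 0.964). In GABAergic neurons it was 0.857 (0.747 to 0.983), in astrocytes 1.06 (0.908 to 1.24) and in microglia 0.995 (0.792 to 1.251). Markers of glia, vessels and choroid plexus, 58 genes in all, were also seen in neurons. In granule neurons they summed to 2479 CPM with doxorubicin plus ACY-1083, 4599 CPM with doxorubicin and 2906 CPM in control, of which Ttr alone gave 752 CPM with doxorubicin plus ACY-1083, 3004 CPM with doxorubicin and 1411 CPM in control. In GABAergic neurons they summed to 1760 CPM with doxorubicin plus ACY-1083, 3544 CPM with doxorubicin and 2020 CPM in control. The part of this foreign RNA in the ratios was not tested.

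**Figure D2:**
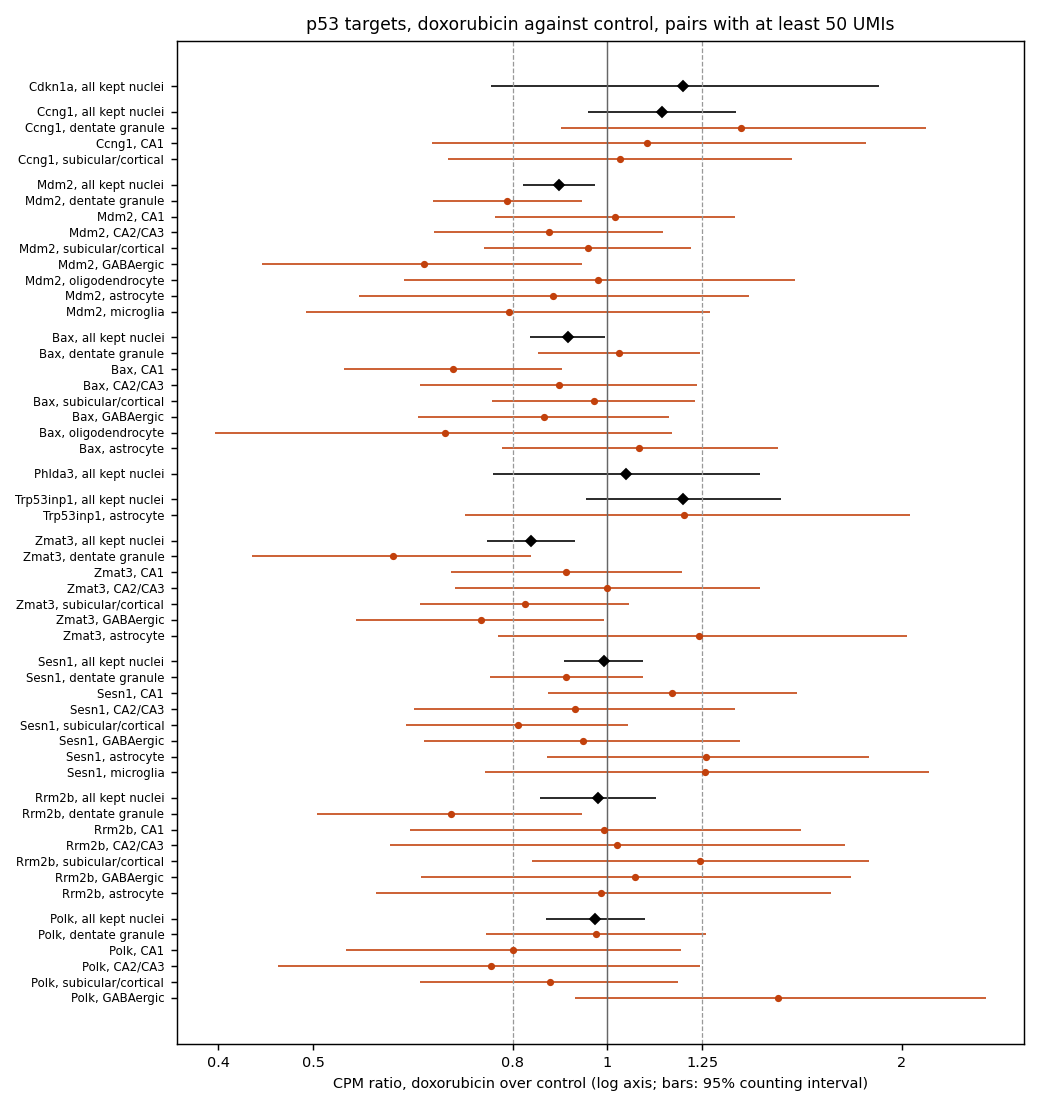
Ratio of CPM in the doxorubicin library to the control library, on a log axis, for each target over all kept nuclei (black diamonds) and for the 43 pairs of target and class with at least 50 UMIs. Bars are exact 95% intervals of the counting error and dashed lines stand at 0.8 and its inverse. No interval lies above 1, and 6 of the class intervals lie below it.

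Per nucleus the 10 targets were sparse. None of them was seen in 38.1% of nuclei with doxorubicin plus ACY-1083 (37.3 to 39.0), 65.2% with doxorubicin (64.3 to 66.1) and 63.3% in control (62.3 to 64.2). At least 3 different targets were seen in 9.33% of nuclei with doxorubicin plus ACY-1083, 1.24% with doxorubicin and 1.21% in control. Every nucleus with at least 1000 UMIs was then thinned to 1000 UMIs, which left 10769 nuclei with doxorubicin plus ACY-1083, 8383 nuclei with doxorubicin and 7569 nuclei in control. Shallower nuclei were dropped, so the mix of cells changed unevenly. Oligodendrocytes went from 1696 to 1232 nuclei with doxorubicin plus ACY-1083, from 888 to 58 with doxorubicin and from 702 to 54 in control. The share with none was then 75.9% with doxorubicin plus ACY-1083, 76.7% with doxorubicin and 75.7% in control. Single classes could differ more: in thinned microglia it was 65.0% with doxorubicin plus ACY-1083, 71.6% with doxorubicin and 81.2% in control. In thinned granule neurons it was 76.9% with doxorubicin plus ACY-1083, 77.4% with doxorubicin and 75.2% in control. The share with at least 3 targets was 0.158% (0.0920 to 0.253) with doxorubicin plus ACY-1083, 0.167% (0.0913 to 0.280) with doxorubicin and 0.225% (0.131 to 0.359) in control, with intervals that overlap. The most UMIs of a single target in a single nucleus were 11, of Sesn1 with doxorubicin plus ACY-1083, and 5, of Zmat3, with doxorubicin. Control reached 3, in 4 of the targets.

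**Figure D3:**
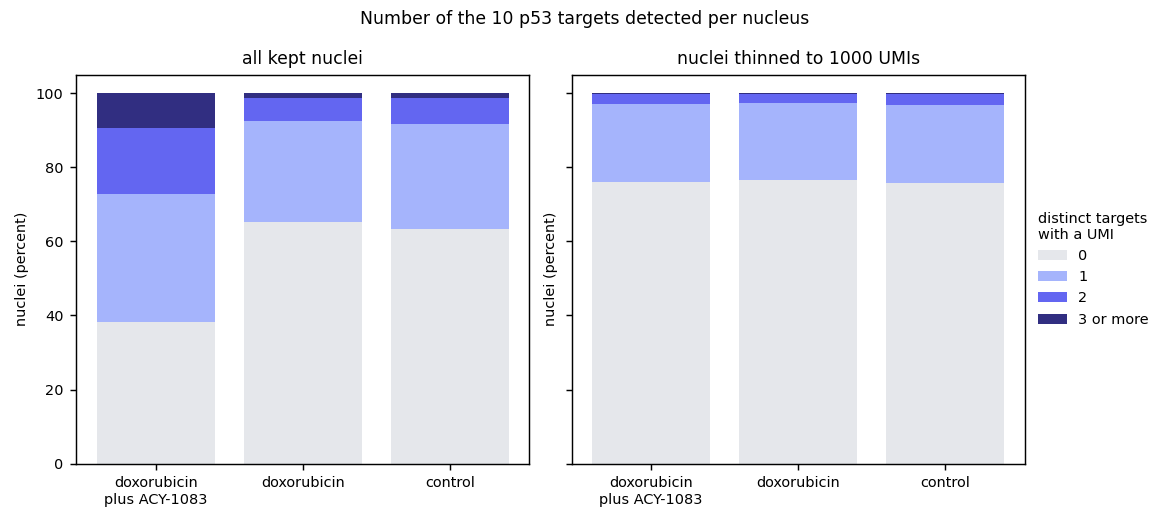
Percentage of nuclei with 0, 1, 2 or at least 3 of the 10 targets, for all kept nuclei and after thinning to a depth of 1000 UMIs, for doxorubicin plus ACY-1083, doxorubicin and control. The share of nuclei with 0 targets is 38.1% with doxorubicin plus ACY-1083, 65.2% with doxorubicin and 63.3% in control, and between 75.7 and 76.7% in all 3 libraries after thinning. Thinning leaves out nuclei under 1000 UMIs, so the mix of cell classes differs between the libraries and from the left panel.

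Set against doxorubicin alone, the doxorubicin plus ACY-1083 library had a summed target level of 0.941-fold (0.913 to 0.971) in CPM. Ratios over all nuclei also hold differences in cell composition. Doxorubicin plus ACY-1083 had 414 subicular or cortical nuclei against 1311 with doxorubicin, and 1696 oligodendrocytes against 888. Other classes were alike in size, such as granule neurons (2548 against 2738) and CA1 neurons (1192 against 1211). The part of composition in the ratio of each gene was not tested. Counted per nucleus there were 1267 target UMIs per 1000 nuclei with doxorubicin plus ACY-1083 against 466 with doxorubicin, or 2.72-fold. Of the 10 genes, 1 was called higher (Sesn1) and 7 lower in CPM. The background was 84.2% of 18065 genes past that size, 36.3% higher and 47.9% lower, so a share of 8 in 10 is near that of all genes. The interval lay above 1 for Sesn1 and below 1 for 8 of the 10, where 37.5% of all genes had it above and 49.7% below. Under TMM scaling all genes of this comparison shift by 0.318 on the log2 scale. Sesn1 has the longest introns of the 10 genes, at 94508 bases, and had the highest ratio, at 2.23 (2.09 to 2.40). Phlda3 has the shortest, at 1459 bases, and had the lowest ratio, at 0.367 (0.273 to 0.493). Bax, with 3626 intron bases, was at 0.429 (0.395 to 0.466). Relative to the median of genes of like intron length, Sesn1 was 1.22-fold, Phlda3 0.848-fold and Bax 0.897-fold. On that scale the 10 genes ran between 0.633-fold for Polk and 1.499-fold for Trp53inp1, and Ccng1 stood at 1.44-fold, although its measured ratio was 0.690 (0.5996 to 0.795). Their median log2 ratio was -0.473 as measured, beside -0.239 over all genes, and -0.160 relative to genes of like intron length.

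**Figure D4:**
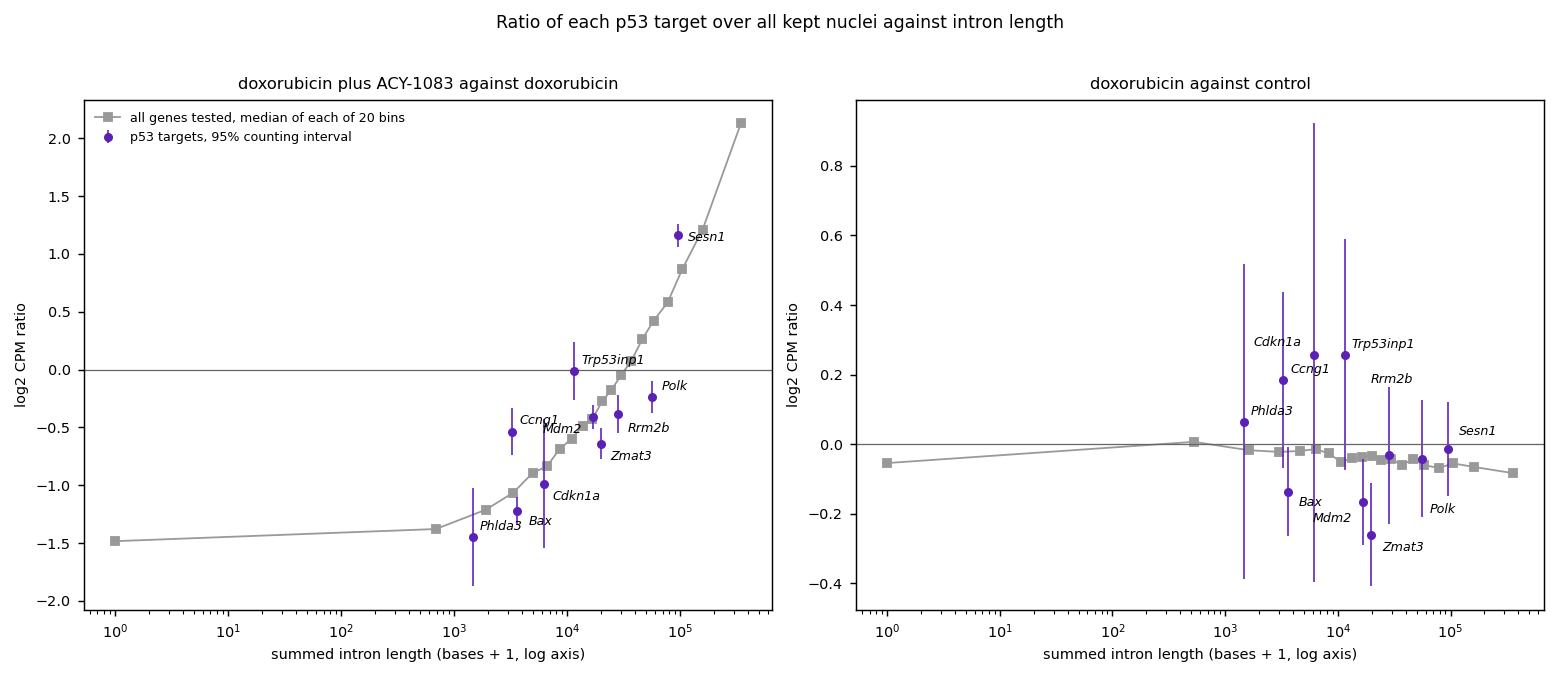
Log2 ratio of CPM over all kept nuclei against intron length, with doxorubicin plus ACY-1083 over doxorubicin on the left and doxorubicin over control on the right. The y axes differ in range, and the ratios named below are before the logarithm. Grey marks are medians of 20 bins of all genes with at least 50 UMIs, and purple points are the 10 targets. On the left the grey marks climb with intron length and the targets spread from Phlda3 at a ratio of 0.367 to Sesn1 at 2.23. On the right both stay near a ratio of 1.

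In the classes, 58 of 110 pairs had at least 50 UMIs in doxorubicin plus ACY-1083 and doxorubicin together, and 52 did not. Of the 58, 15 were called higher and 27 lower with doxorubicin plus ACY-1083, 72.4% in all, beside 81.1% of 89474 pairs of any gene and class (36.3% higher, 44.8% lower). TMM scaling split the pairs into 22 higher and 12 lower (background 45.2% and 33.6%), and centring on genes of like intron length into 25 higher and 10 lower (background 33.9% and 30.6%). The interval lay above 1 in 12 pairs (background 31.5%) and below 1 in 22 (background 38.7%). Sesn1 was higher in all 11 classes, between 1.93-fold in oligodendrocyte precursor cells (1.09 to 3.65) and 4.03-fold in oligodendrocytes (2.43 to 7.16). Relative to genes of like intron length it still lay above 1 in all 11, between 1.24-fold in CA2/CA3 neurons and 2.37-fold in oligodendrocytes. Oligodendrocytes had 103 CPM of Sesn1 with doxorubicin plus ACY-1083, 25.5 CPM with doxorubicin and 31.7 CPM in control. In the same nuclei 54 neuron marker genes summed to 3613 CPM with doxorubicin plus ACY-1083, 1748 CPM with doxorubicin and 1687 CPM in control, and the part of neuronal RNA in the ratio was not tested.

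Among the other genes, Ccng1, Bax and Zmat3 lay below 1 as measured in every class with enough UMIs. Rrm2b did so in 6 of 7 such classes, Mdm2 in 6 of 9, Polk in 5 of 8 and Trp53inp1 in 1 of 3. Cdkn1a and Phlda3 had no class with enough UMIs. Bax lay between 0.377 in granule neurons (0.316 to 0.450) and 0.482 in astrocytes (0.352 to 0.659), apart from oligodendrocytes at 0.868 (0.562 to 1.38). Zmat3 was called lower in all 7 classes with enough UMIs, between 0.517 in astrocytes (0.334 to 0.796) and 0.716 in subicular or cortical neurons (0.536 to 0.954), and relative to genes of like intron length it lay between 0.683 and 1.02. Ccng1 was below 1 in all 6 of its classes as measured, from 0.581 to 0.774, and above 1 in all 6 relative to genes of like intron length, from 1.07 to 1.78. Mdm2 in granule neurons was 0.728-fold (0.625 to 0.849) as measured and 1.09-fold relative to such genes. Trp53inp1 in CA1 neurons was 1.42-fold (0.709 to 3.14). Polk differed between classes: it was 2.30-fold in astrocytes (1.41 to 3.91), 1.36-fold in CA2/CA3 neurons (0.923 to 2.06), 0.724-fold in granule neurons (0.586 to 0.90) and 0.619-fold in GABAergic neurons (0.430 to 0.902), and this difference was not tested. In the same astrocytes the 54 neuron markers summed to 6680 CPM with doxorubicin plus ACY-1083, 3395 CPM with doxorubicin and 3569 CPM in control, and their part in the ratio was not tested. In microglia the summed level of the 10 targets was 459 CPM with doxorubicin plus ACY-1083 (145 UMIs), 298 CPM with doxorubicin (160 UMIs) and 299 CPM in control (153 UMIs), and 60 of the 145 UMIs were of Sesn1. The median depth of these microglia was 1270 UMIs with doxorubicin plus ACY-1083 and 1379.5 UMIs with doxorubicin. At Leiden resolution 0.5 the class went from 208 to 390 nuclei with doxorubicin plus ACY-1083 and from 258 to 393 with doxorubicin. Its extent thus depends on the clustering.

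Other genes of the pathway were read from lists over all kept nuclei. Of p53 and its regulators, 19 of 20 were found and 18 had enough UMIs in doxorubicin and control, of which 2 were called higher and 1 lower with doxorubicin, with a median log2 ratio of -0.070. Of all genes tested 6.7% were called higher and 6.42% lower, with a median of -0.045. The interval was above 1 for 1 of the 18 and below 1 for 7, where 8.56% of all genes had it above and 17.6% below. Trp53, the gene of p53 itself, had 12.9 CPM with doxorubicin plus ACY-1083, 19.5 CPM with doxorubicin and 21.1 CPM in control, a doxorubicin ratio of 0.927 (0.803 to 1.07). Atm, the break-sensing kinase, had 47.8 CPM with doxorubicin plus ACY-1083, 51.8 CPM with doxorubicin and 51.2 CPM in control, a doxorubicin ratio of 1.01 (0.924 to 1.11). Mdm4, the partner of Mdm2, had 121 CPM with doxorubicin plus ACY-1083, 167 CPM with doxorubicin and 168 CPM in control, a doxorubicin ratio of 0.994 (0.946 to 1.04). Crebbp, a histone acetyltransferase that acts with p53, had 232 CPM with doxorubicin plus ACY-1083, 90.4 CPM with doxorubicin and 96.9 CPM in control, a ratio of 0.933 (0.874 to 0.997). Those called higher were the p53 relative Trp73 and the checkpoint kinase Chek2, and both intervals included 1. Trp73 was at 1.42 (0.910 to 2.25) from 54 doxorubicin and 34 control UMIs. Chek2 was at 1.38 (0.977 to 1.95) from 89 doxorubicin and 58 control UMIs. Trp73 was also a naming marker of Cajal-Retzius cells, and the part of cell composition in its ratio was not tested. The gene called lower, named after its value was seen, was the deacetylase Sirt1, at 0.7999 (0.712 to 0.898).

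Of 35 other p53 targets, 34 were found and 28 had enough UMIs, of which 3 were called higher and 4 lower with doxorubicin, with a median log2 ratio of -0.067, against the same 6.7% higher, 6.42% lower and median of -0.045 over all genes. The interval was above 1 for 2 of the 28 and below 1 for 7, against the same 8.56% above and 17.6% below over all genes. Plk2, an activity- and stress-induced kinase, had 59.2 CPM with doxorubicin plus ACY-1083, 164 CPM with doxorubicin and 163 CPM in control, a doxorubicin ratio of 1.002 (0.953 to 1.05). Susd6 was 1.09-fold (1.01 to 1.18). Sesn2, a relative of Sesn1 that p53 and other stress factors induce, was 0.667-fold (0.471 to 0.940), and Polh, a lesion-bypass polymerase, was 0.597-fold (0.402 to 0.880), from 46 doxorubicin and 69 control UMIs. The other called targets were named after their values were seen. Those higher were Rps27l at 1.28 (1.07 to 1.55), Perp at 1.44 (0.936 to 2.25) and Pidd1 at 1.43 (0.980 to 2.11), and the lower ones Plk3 at 0.778 (0.615 to 0.983) and Acer2 at 0.778 (0.539 to 1.12). Sesn2 and Polh also stand in a list of relatives of the 10 genes, of which 13 had enough UMIs, 0 were called higher and these 2 lower. There, the lesion-bypass genes Rev1 and Rev3l were at 0.975 (0.933 to 1.02) and 0.927 (0.878 to 0.979). Of 3 cyclin-dependent kinase inhibitors other than Cdkn1a with enough UMIs, Cdkn1c was 1.64-fold (1.24 to 2.19), with 2.02 CPM with doxorubicin plus ACY-1083, 7.16 CPM with doxorubicin and 4.35 CPM in control. Cdkn1b was at 1.12 (0.968 to 1.30) and Cdkn2d at 1.08 (0.938 to 1.251). With doxorubicin plus ACY-1083 against doxorubicin, 2 of 29 other p53 targets were called higher and 21 lower, with a median log2 ratio of -0.803, where 36.3% of all genes were higher and 47.9% lower, with a median of -0.239. Of p53 and its regulators 5 of 19 were higher and 9 lower, of the relatives 3 of 13 were higher and 7 lower, and all 3 kinase inhibitors were lower. Intron lengths were not taken into account in these lists.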

How the data were processed

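Per the labels' protocols, nuclei were isolated from frozen hippocampi of 4 mice per group and pooled. The authors deposited count matrices of UMIs, one value for each gene in each barcode, without normalization. Per the file headers they were made with Cell Ranger 4.0.0 (control, doxorubicin) and 5.0.0 (doxorubicin plus ACY-1083), and per the submitters' processing notes with Cell Ranger 6.0.0 on mm10. The sources used here do not say whether intronic reads were included.

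Barcodes with at least 300 genes and under 5% mitochondrial UMIs were kept, and Scrublet doublets (score over 0.25) were removed, which were 344 (2.82%) of the barcodes with doxorubicin plus ACY-1083, 573 (4.69%) with doxorubicin and 452 (4.14%) in control. Nuclei were clustered in scanpy 1.11.5 (2000 variable genes, 30 components, 15 neighbours, Leiden resolution 1), doxorubicin with control (18 clusters) and doxorubicin plus ACY-1083 alone (37). Clusters were named by their leading marker genes, and a name means only that the cluster resembles those markers. Counts were summed per class and divided by the class total (CPM, computed here). CPM have exact Poisson intervals, ratios exact Clopper-Pearson intervals conditional on the sum, and shares exact binomial ones (scipy 1.17.1). All are at 95%, and a count of 0 allows up to 3 counts. UMI counts of pooled mice give no replicate error, so a pair with at least 50 UMIs in both libraries together was called by size, as lower at a ratio of at most 0.8 and higher at its inverse or above. Ratios were also centred on the median of 20 bins of intron length (GENCODE vM21, GRCm38, 32235 of 32285 genes matched). The ratio step was tested on simulated data. TMM factors came from edgeR 4.0.16 (R 4.3.3), with no test.

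All 10 members and, of each pathway list, the 2 genes with the most UMIs and the 2 with the most extreme doxorubicin to control ratio were named, and always Trp53, Mdm4 and Atm. The members and lists were chosen with earlier results of these data known. Rfwd2 and Tnfrsf10a were not found under those symbols. Alternatives tried were other scaling, filters, depth, clustering, UMI minimum and fold.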

Additional observations from a re-analysis of the deposited data

Results flagged for a closer look

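Polk, the gene of a lesion-bypass DNA polymerase, had opposite ratios of doxorubicin plus ACY-1083 to doxorubicin in different cell classes, with intervals that exclude 1 on both sides. It was 2.30-fold in astrocytes, from 80 UMIs with doxorubicin plus ACY-1083 and 21 with doxorubicin. In the same astrocytes 54 neuron marker genes summed to 6680 CPM with doxorubicin plus ACY-1083 and 3395 CPM with doxorubicin, and their part in the ratio was not tested. It was 0.724-fold in granule neurons, from 281 UMIs with doxorubicin plus ACY-1083 and 128 with doxorubicin, and 0.619-fold in GABAergic neurons, from 92 UMIs with doxorubicin plus ACY-1083 and 46 with doxorubicin. In CA2/CA3 neurons it was 1.36-fold (0.923 to 2.06), at 20.9 CPM with doxorubicin plus ACY-1083 and 15.4 CPM with doxorubicin. Relative to genes of like intron length the ratios were 2.07 in astrocytes, 1.003 in CA2/CA3 neurons, 0.640 in granule neurons and 0.524 in GABAergic neurons. The difference between the classes was not tested. In astrocytes Polk had 41.7 CPM with doxorubicin plus ACY-1083, 18.2 CPM with doxorubicin and 29.6 CPM in control (26 UMIs).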

How the results depend on the processing

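No paired analysis was possible because each group is 1 pooled library, and for the same reason no replicate could be left out. The summed doxorubicin to control ratio of 0.942 lay between 0.916 and 0.974 under the other alternatives, and the mean over the 10 targets relative to genes of like intron length was 1.03. The summed ratio of doxorubicin plus ACY-1083 to doxorubicin, 0.941, was 1.17 with TMM, 1.04 with nuclei thinned to 1000 UMIs, 0.781 without mitochondrial and Malat1 UMIs in the totals, 1.08 with equal weight per class, 0.670 without Sesn1 and 2.72 per nucleus, an alternative chosen after seeing the data. The 13 of 43 pairs called higher or lower between doxorubicin and control became 8 of 22 after thinning, 39 of 89 with at least 10 UMIs, 2 of 12 with at least 200 UMIs, and 2 at 1.5-fold. The 42 of 58 pairs called between doxorubicin plus ACY-1083 and doxorubicin became 19 of 24 after thinning, 72 of 93 with at least 10 UMIs and 18 of 22 with at least 200 UMIs. The share over all genes was not computed under thinning, the other UMI minima or 1.5-fold. These counts therefore do not tell the targets from other genes. Relative to genes of like intron length, doxorubicin to control ratios crossed 1 without having been called: 7 of the 10 targets lay above 1 over all nuclei, against 4 as measured, and Rrm2b lay above 1 in 5 of 6 classes, against 3. Ratios of doxorubicin plus ACY-1083 to doxorubicin crossed 1 as well. Per nucleus, Cdkn1a was 1.45-fold, Ccng1 1.99, Mdm2 2.17, Bax 1.24, Phlda3 1.06, Zmat3 1.85 and Rrm2b 2.21 over all kept nuclei. Relative to genes of like intron length, Ccng1 was 1.44 over all nuclei, 1.55 in granule, 1.46 in CA1 and 1.46 in subicular or cortical neurons, Mdm2 was 1.01 over all nuclei and 1.09 in granule neurons, and Zmat3 was 1.02 in subicular or cortical neurons. After thinning, Mdm2 was 1.01 in CA2/CA3 neurons. The cause was not tested. Of the classes compared, 4 were missing with at least 600 genes per nucleus, 4 after thinning and 2 at Leiden resolution 0.5. Depth limits Cdkn1a and Phlda3, which had no class with 50 UMIs.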

Other observations

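Endothelial cells, which line blood vessels, had too few nuclei to be compared (82 with doxorubicin plus ACY-1083, 102 with doxorubicin and 58 in control), but held a visible part of the Cdkn1a UMIs. They had 4 of 71 UMIs (40.7 CPM, 11.1 to 104) with doxorubicin plus ACY-1083, 6 of 48 (51.3 CPM, 18.8 to 112) with doxorubicin, and 0 of 36 in control, which allows up to 41.9 CPM (3 UMIs). The intervals with doxorubicin plus ACY-1083 and with doxorubicin both reach below that limit, and in doxorubicin the 6 UMIs came from 4 nuclei. Polk was also seen there, at 193 CPM (116 to 302) with doxorubicin plus ACY-1083, 162 CPM (97.8 to 254) with doxorubicin and 167 CPM (86.5 to 292) in control. All 3 nuclei of the doxorubicin library with at least 3 Polk UMIs were endothelial.

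Ependymal cells, the ciliated lining of the ventricles, had 27 nuclei with doxorubicin plus ACY-1083, 39 with doxorubicin and 31 in control. Sesn1 had 271 CPM (161 to 429) with doxorubicin plus ACY-1083, 111 CPM (44.4 to 228) with doxorubicin and 76.4 CPM (15.8 to 223) in control, and these intervals overlap. Cajal-Retzius cells, named in the doxorubicin plus ACY-1083 library alone, had 254 CPM of Sesn1 (171 to 362).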
